A study of Sorghum bicolor with 4 samples.

Results

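Loci without a gene identifier are transcribed stretches of the genome that the deposited table lists under a number alone, with a dash where other rows give the identifier of a sorghum gene. They were chosen as the rows whose gene name is a dash and whose value reached 10 FPKM (fragments scaled by the length of the locus and by all mapped fragments) at physiological maturity or at the milk stage. The rule found 265 loci, of 1773 rows without an identifier and 34458 rows in all. Since the level at both stages chose the members, levels and stage differences are given as a description, and no test was run on them.

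The RNA came from the middle stem internode of field-grown Sorghum bicolor of the line ICSA38, a sweet sorghum, which stores sugar in its stalk. Internodes were sampled at physiological maturity (2 libraries) and at the earlier milk stage of the grain (2 libraries). No treatment or mutation is labelled, and the labels do not give the age of the plants or say whether the libraries of a stage came from separate plants. The table holds 1 value per locus and stage, so the spread between libraries, the depth and the counting error of each value are unknown. Whether a difference exceeds that spread cannot be read from these values.

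Transcripts outside the annotated genes of a plant genome can be long non-coding RNAs, precursors of small RNAs, transcribed transposons, short genes that the annotation missed, or pieces of a neighbouring gene that extend past its annotated ends. Libraries made from total RNA, as here, can also hold RNAs that lack a poly(A) tail. The table gives neither sequence nor coordinates nor strand for these loci, so none of these classes could be assigned. Each locus carries a number with the prefix MSTRG, the default prefix of the transcript assembler StringTie, although the sources used here name no assembler.

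The loci without an identifier were less often abundant than named genes, and those that were abundant were so at a lower level. Of all rows without an identifier, 14.9% reached 10 FPKM at either stage, against 31.1% of the rows with 1 Sobic identifier (9759 of 31423) and 67.5% of the rows with several identifiers. The sets of rows are not alike, because 10645 rows are listed by identifier without a locus number, and 3 of these reached the limit. Such rows lower the share of rows with an identifier. The mean of the stages had a median of 16.0 FPKM over the 265 loci, with quartiles of 11.4 and 28.4 FPKM. Over the rows with 1 identifier past the same limit the median was 25.4 FPKM, with quartiles of 14.4 and 52.7 FPKM. A mean of 100 FPKM or more was reached by 15 of the loci without an identifier (5.66%) and by 1152 of those with 1 identifier (11.8%).

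More of these loci passed the limit at maturity alone than at the milk stage alone. The value was 10 FPKM or more at both stages for 163 of the 265 loci, at maturity alone for 63 (23.8%) and at the milk stage alone for 39 (14.7%). Among rows with 1 identifier the corresponding shares were 12.0% at maturity alone and 9.50% at the milk stage alone. Among rows with several identifiers they were 13.0% and 5.87%, so the same order was seen there. Over the 265 loci the median level was 16.7 FPKM at maturity and 15.1 FPKM at the milk stage. At the limit itself, MSTRG.14260 (10.01 FPKM at maturity and 7.99 FPKM at the milk stage) and MSTRG.6660 (10.01 FPKM at maturity and 5.81 FPKM at the milk stage) lay just inside. MSTRG.14990 (9.95 FPKM at maturity and 4.34 FPKM at the milk stage) and MSTRG.22697 (9.90 FPKM at maturity and 7.85 FPKM at the milk stage) lay just outside.

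A single locus, MSTRG.19811, held much of the signal. Its value was 6249 FPKM at maturity, the 3rd highest of the whole table, and 4412 FPKM at the milk stage, the 7th highest. The plain ratio of maturity to milk stage was 1.42. This locus made up 41.9% of the summed FPKM of the 265 loci at maturity and 36.1% at the milk stage. The 265 loci together held 2.23% of the table's FPKM sum at maturity and 1.53% at the milk stage. Without MSTRG.19811 these shares were 1.30% at maturity and 0.975% at the milk stage, so both were carried in large part by 1 locus. The members' own sum without it was 1.11 times as high at maturity as at the milk stage, whereas the sum of the whole table was 0.833 times as high. By locus number MSTRG.19811 follows the locus of Sobic.009G012700, whose values were 44.7 FPKM at maturity and 44.6 FPKM at the milk stage.

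The other abundant members differed in direction. MSTRG.5788 was at 473 FPKM at maturity and 165 FPKM at the milk stage. MSTRG.21945 was at 369 FPKM at maturity and 120 FPKM at the milk stage, and MSTRG.21934 was at 293 FPKM at maturity and 51.1 FPKM at the milk stage. These 3, all more than 2-fold higher at maturity, were the next most abundant members at that stage.

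The members that followed MSTRG.19811 at the milk stage had lower values at maturity, by different amounts. MSTRG.3333 was at 164 FPKM at maturity and 740 FPKM at the milk stage. MSTRG.8200 was at 211 FPKM at maturity and 435 FPKM at the milk stage. MSTRG.15684 was at 233 FPKM at maturity and 242 FPKM at the milk stage, and MSTRG.13457 was at 169 FPKM at maturity and 229 FPKM at the milk stage. MSTRG.3333 has the locus number just before that of MSTRG.3334, which was at 247 FPKM at maturity and 154 FPKM at the milk stage. The adjacent pair thus lay on opposite sides of 0, with log2 differences of -2.17 and 0.68.

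**Figure D1:**
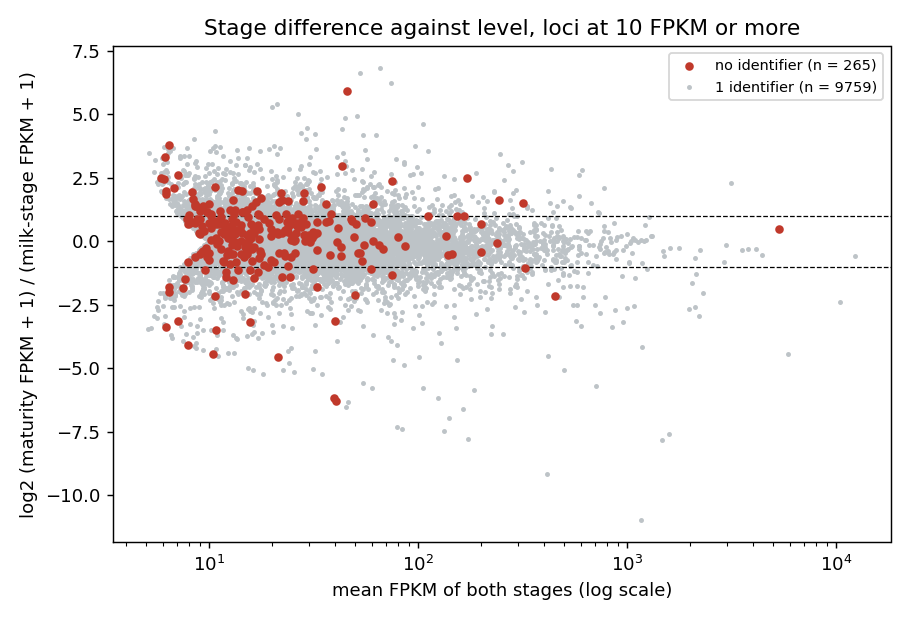
Stage difference on the log2 scale (maturity against milk stage, 1 added to each FPKM, y axis) against the mean FPKM of both stages (x axis, log scale) for the 265 loci without an identifier (red) and the 9759 loci with 1 identifier (grey), each at 10 FPKM or more at either stage. Dashed lines mark 2-fold differences, and the red point at the far right is MSTRG.19811, with a mean of 5330 FPKM.

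The loci without an identifier leaned towards higher values at maturity. The log2 difference, in which 1 was added to each FPKM and maturity was set over the milk stage, had a median of 0.33 over the 265 loci, with quartiles of -0.45 and 0.89, and was above 0 for 168 of them (63.4%). Over the 9759 loci with 1 identifier past the same limit the median was -0.04, and 48.3% were above 0. The 852 loci with several identifiers leaned the same way as the members, by less, with a median of 0.09 and 54.7% above 0. Past a 2-fold limit, 57 members had the higher value at maturity (21.5%) and 33 the lower one (12.5%). Of all 10876 loci at 10 FPKM or more, 11.4% were that much higher and 12.0% that much lower. Of the members past the 2-fold limit 63.3% were thus higher, and 76.9% were when both stages were scaled to equal sums. That scaling moved the median of all these loci to 0.24 as against -0.02 as deposited. Under it 31.3% of members were higher and 9.43% lower. Of the loci with 1 identifier matched on mean FPKM, as described below, 20.7% were higher and 8.32% lower under the same scaling. The members were chosen on these same values, and these counts carry no test.

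Beside loci with 1 identifier of like abundance, the members' surplus past the 2-fold limit lay almost wholly on the higher side. Each member was set beside the 20 loci with 1 identifier nearest to it in mean FPKM, taken among those that also reached 10 FPKM at either stage. On average 14.4% of these matched loci were 2-fold or more above their milk-stage value and 12.3% as far below it. The share of higher loci was thus 7.15 percentage points larger among the members than among the matched loci, and that of lower loci 0.170 points larger. The median log2 difference over the matched loci was 0.05, and 156 of the 265 members (58.9%) lay above the median of their own 20. At a 4-fold limit the sides changed place: 13 members were higher (4.91%, against 4.72% of matched loci) and 14 lower (5.28%, against 3.38%), where all loci past the limit gave 2.90% and 2.97%. The surplus of higher members therefore lay mostly between 2-fold and 4-fold. When loci with several identifiers were matched instead, 14.7% of them were at least 2-fold higher and 7.49% lower. More of them were thus higher than lower, as among the members, and their median of matched medians was 0.22.

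**Figure D2:**
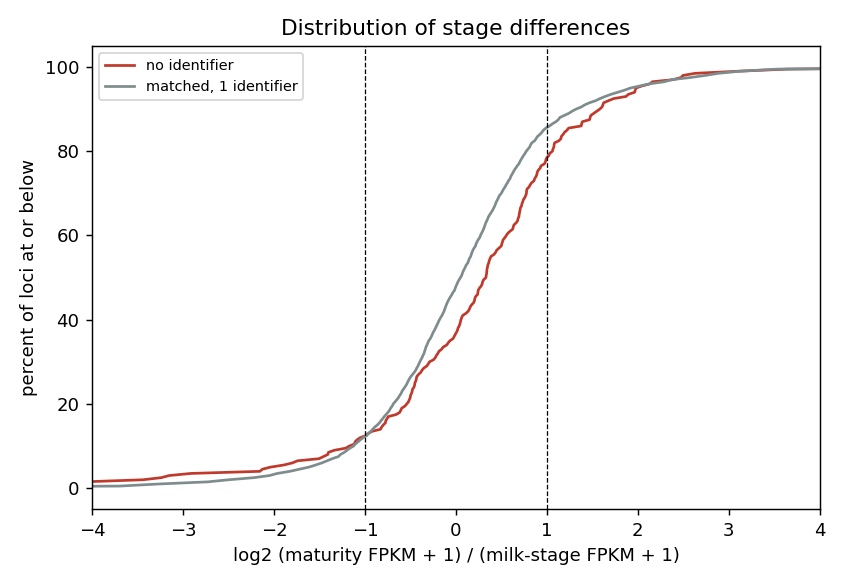
Cumulative distribution of the log2 stage difference (x axis, drawn from -4 to 4) for the 265 loci without an identifier (red) and for their matched loci with 1 identifier (grey, 20 per member), with the percent of loci at or below each value on the y axis. The red curve runs to the right of the grey one through its middle, with medians of 0.33 over members and 0.05 over matched loci, and dashed lines mark 2-fold differences.

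The direction held in most ranges of abundance. Of the 77 members between 20 and 50 FPKM in mean, 14 (18.2%) exceeded the 2-fold limit upwards and 9 (11.7%) downwards, while 8.86% of loci with 1 identifier in that range were higher and 10.4% lower. Among the 108 members at 10 to 20 FPKM, 16.7% were higher and 11.1% lower, against 11.4% and 9.33% of loci with 1 identifier. Among the 15 members at 100 FPKM or more, 4 (26.7%) were higher and 2 (13.3%) lower, with a median log2 difference of 0.50. The 1152 loci with 1 identifier there had a median of -0.25, with 6.60% higher and 18.8% lower. The 16 members at 50 to 100 FPKM were split evenly, with 2 higher and 2 lower (12.5% each) and a median of -0.15, close to the -0.13 of loci with 1 identifier, of which 8.46% were higher and 13.1% lower. The 49 members with a mean under 10 FPKM had to lie under the limit at 1 stage, so their differences are partly set by the rule. Of these members 19 (38.8%) were higher and 8 (16.3%) lower, and loci with 1 identifier in that range, under the same rule, leaned the same way with 28.6% higher and 18.6% lower.

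**Figure D3:**
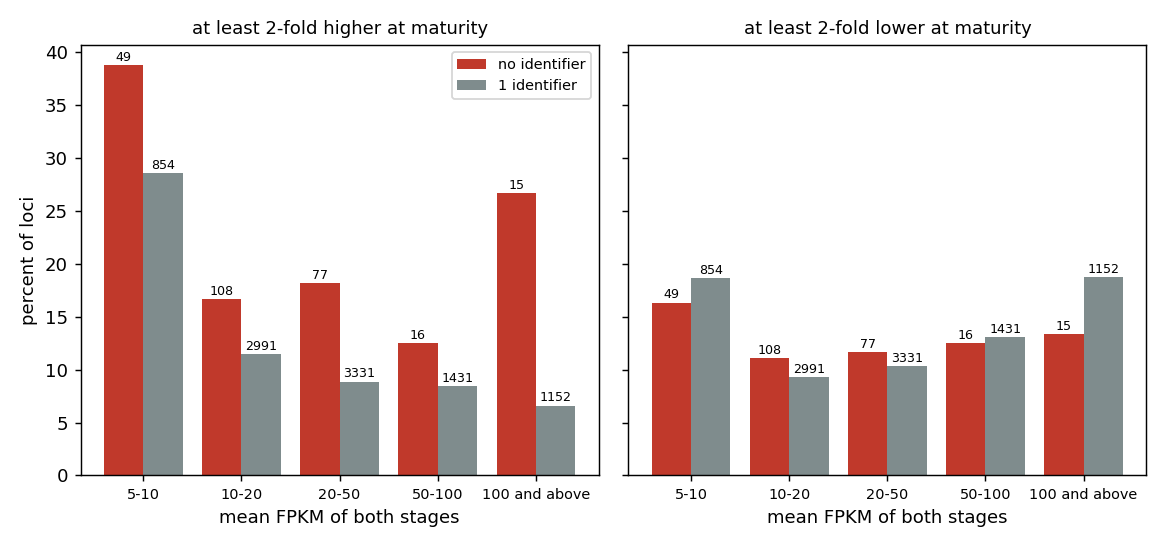
Percent of loci past the 2-fold limit upwards (left) and downwards (right) at maturity, by the mean FPKM of both stages, for loci without an identifier (red) and with 1 identifier (grey), with the number of loci in the range above each bar. In the highest range 26.7% of 15 members were higher at maturity, against 6.60% of 1152 loci with 1 identifier.

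Most of the largest differences were those of loci near 0 at 1 stage. MSTRG.21196 was at 90.5 FPKM at maturity and 0.489 FPKM at the milk stage, the largest log2 difference at 5.94. MSTRG.2892 was at 77.0 FPKM at maturity and 8.91 FPKM at the milk stage. MSTRG.4307 was at 11.9 FPKM at maturity and 0.276 FPKM at the milk stage, and MSTRG.17268 was at 13.0 FPKM at maturity and 1.28 FPKM at the milk stage. MSTRG.12625 was at 12.8 FPKM at maturity and listed at 0 at the milk stage, the only member listed at 0 at that stage. Apart from MSTRG.21196 and MSTRG.2892, these loci only just passed the limit at maturity.

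In the other direction, MSTRG.2323 was at 0.0439 FPKM at maturity and 80.5 FPKM at the milk stage, a log2 difference of -6.29. MSTRG.107 was at 0.116 FPKM at maturity and 78.8 FPKM at the milk stage, a log2 difference of -6.16. MSTRG.13839 was at 0.820 FPKM at maturity and 41.9 FPKM at the milk stage. All of these were well above the limit at the milk stage and under 1 FPKM at maturity. MSTRG.2082 and MSTRG.18970 were listed at 0 at maturity, with 20.8 FPKM and 15.9 FPKM at the milk stage, and no fold is given for them. A value of 0 may be a failed estimate.

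Other members barely differed between the stages. Among those with a mean of 50 FPKM or more, MSTRG.19046 was closest to 0, at 61.5 FPKM at maturity and 60.6 FPKM at the milk stage. MSTRG.17503 was at 52.3 FPKM at maturity and 57.5 FPKM at the milk stage, MSTRG.8670 at 61.4 FPKM at maturity and 68.6 FPKM at the milk stage, and MSTRG.378 at 84.4 FPKM at maturity and 75.4 FPKM at the milk stage. With MSTRG.15684 these were the 5 members of that level with the smallest differences, from -0.16 to 0.16 on the log2 scale.

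The locus numbers follow the genome closely enough to place the members by chromosome. Of 20721 neighbouring pairs of numbered loci with 1 identifier on the same chromosome, 86.5% ascended in identifier, and the numbering passed from chromosome 1 to chromosome 10 with no step back. By the identifiers on either side, 262 of the 265 members were placed on a chromosome, and the other 3 (MSTRG.23765, MSTRG.23766 and MSTRG.23768) were numbered after the last locus of chromosome 10.

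Members were most frequent on chromosomes 5 and 8. With the 10 chromosomes pooled, their share was also highest in stretches 2 and 3 when each chromosome's numbering was cut into 5. They made up 6.94% of the numbered loci at 10 FPKM or more on chromosome 5 (32 of 461) and 4.49% on chromosome 8 (24 of 534), against 1.37% to 2.77% on the other 8 chromosomes. Together chromosomes 5 and 8 held 21.4% of the placed members and 9.17% of the numbered loci past the limit. The same chromosomes had the largest shares of rows without an identifier at any level, 15.5% of the numbered loci on chromosome 5 and 11.4% on chromosome 8. Of the rows without an identifier, the share that reached the limit was 14.9% on chromosome 5, 16.1% on chromosome 8, and between 11.5% and 18.4% on the others.

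When the locus numbers of each chromosome were divided into 5 equal stretches, stretches 2 and 3 held 150 of the 262 placed members (57.3%) and 38.2% of the numbered loci past the limit. Members were 3.41% and 3.83% of the loci past the limit in these stretches, and 1.34% to 1.95% in the others. Rows without an identifier at any level were frequent in the same stretches, at 9.32% and 9.90% of the numbered loci against 4.33% to 6.40% in the others, and the share of them that reached the limit was 14.2% to 16.9% in each of the 5 stretches. Without chromosomes 5 and 8, 54.9% of the remaining 206 members lay in those stretches. Stretches 2 and 3 held more members than the others together on 6 of the 10 chromosomes.

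**Figure D4:**
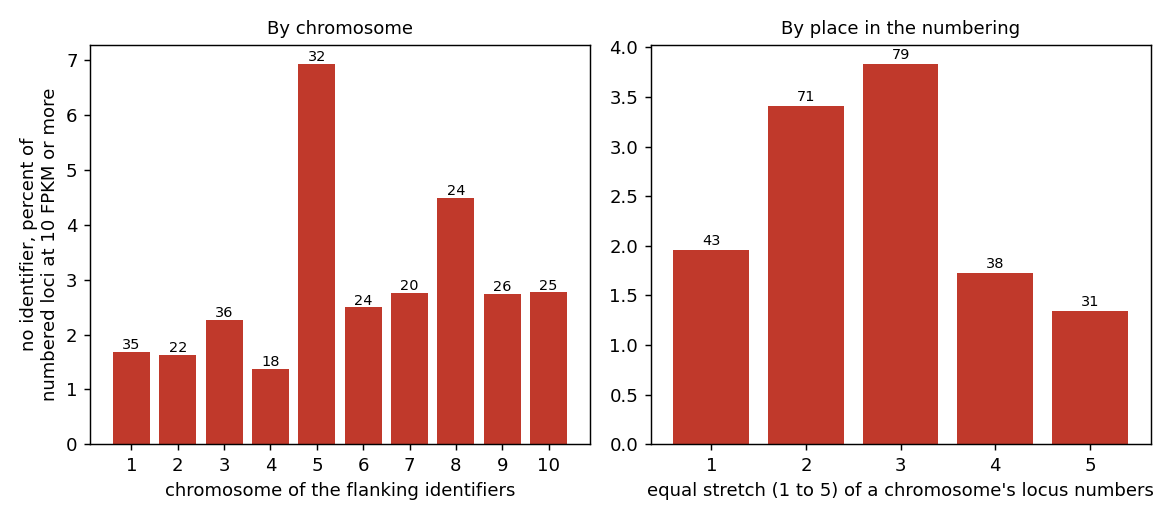
Loci without an identifier as a percent of the numbered loci at 10 FPKM or more at either stage, by the chromosome of the flanking identifiers (left) and by 5 equal stretches of the locus numbers within a chromosome (right), with the number of members above each bar. Chromosome 5 stands highest at 6.94%, and stretches 2 and 3 at 3.41% and 3.83%.

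On chromosome 1 more members were lower at maturity than higher. Its 35 members had a median log2 difference of -0.40, with 5 past the 2-fold limit upwards and 12 downwards. The 1900 loci with 1 identifier at 10 FPKM or more on that chromosome had a median of -0.08, with 9.11% past the limit upwards and 12.7% downwards. On the other 9 chromosomes the median was above 0, between 0.10 on chromosome 10 and 0.78 on chromosome 7, and on chromosome 2 there were 6 higher members and 0 lower ones among 22. Of the loci with 1 identifier on chromosome 2, 10.4% were higher and 12.7% lower. Their medians lay between -0.08 and 0.07 over the 10 chromosomes. Of the members named above, 7 lie on chromosome 1 by their numbers: MSTRG.107, MSTRG.2082, MSTRG.2323 and MSTRG.3333 had lower values at maturity, and MSTRG.378, MSTRG.2892 and MSTRG.3334 higher ones. With equal sums chromosome 1 had 7 higher and 8 lower members and a median of -0.16, while the median of each other chromosome stayed above 0 under that scaling, median-of-ratios scaling and quantile normalization. The chromosomes were compared after their values were seen.

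Some of the most extreme members were numbered next to very abundant named genes. A locus with a mean of 1000 FPKM or more had the number before or after that of 8 of the 265 members. MSTRG.2323, whose difference was the largest in size, was not among them. The share of loci with 1 identifier beside such a locus was not computed, so no excess can be read from this count. MSTRG.107, nearly absent at maturity, stands between the loci of Sobic.001G012500 (524 FPKM at maturity and 11285 FPKM at the milk stage) and Sobic.001G012600 (50.7 FPKM at maturity and 144 FPKM at the milk stage). Its value was 0.0221% of that of Sobic.001G012500 at maturity and 0.698% at the milk stage. MSTRG.21196, nearly absent at the milk stage, follows Sobic.009G197300 (5208 FPKM at maturity and 1062 FPKM at the milk stage), and its value was 1.74% of that locus at maturity and 0.0460% at the milk stage. In both pairs the member differed in the same direction as its abundant neighbour and by a larger factor. What part the neighbours' reads have in the members' values was not tested.

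The other 6 members beside such loci did not share 1 pattern. MSTRG.15688 was at 219.8 FPKM at maturity and 110.2 FPKM at the milk stage, beside a locus of 2 genes (Sobic.006G135575 and Sobic.006G135600) at 1811 FPKM at maturity and 877 FPKM at the milk stage. MSTRG.9498 was at 6.14 FPKM at maturity and 18.0 FPKM at the milk stage, beside Sobic.003G305700 at 539 FPKM at maturity and 3410 FPKM at the milk stage. MSTRG.7713 was at 19.1 FPKM at maturity and 29.8 FPKM at the milk stage, beside Sobic.003G071901 at 1242 FPKM at maturity and 3035 FPKM at the milk stage. These 3 differed in the direction of their neighbour.

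MSTRG.1443 and MSTRG.10076 ran the other way from their abundant neighbours. MSTRG.1443 was at 45.4 FPKM at maturity and 11.5 FPKM at the milk stage, beside Sobic.001G191200 at 1286 FPKM at maturity and 1692 FPKM at the milk stage. MSTRG.10076 was at 42.7 FPKM at maturity and 13.3 FPKM at the milk stage, beside Sobic.003G378000 at 1206 FPKM at maturity and 1779 FPKM at the milk stage. MSTRG.6385 barely differed, at 14.6 FPKM at maturity and 15.4 FPKM at the milk stage, beside Sobic.002G324200 at 9925 FPKM at maturity and 14712 FPKM at the milk stage.

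Across all members the link to adjacent loci was weak. Adjacent here means consecutive in locus number, and any of the 10645 rows without a number could lie between such loci. Over 315 pairs of a member and an adjacent locus with 1 identifier at 1 FPKM or more, the log2 differences correlated with a Pearson r of 0.21 and a Spearman rho of 0.13. Without the 8 members beside a locus of 1000 FPKM, r was 0.10 and rho 0.10 over 303 pairs. Loci with 1 identifier at 10 FPKM or more were paired in the same way, with those beside such a locus kept in. They gave an r of 0.10 and a rho of 0.08 over 14143 pairings. In these, adjacent loci that both reached 10 FPKM were counted once from each side. Many pairs share a member, and all share the same libraries. Of the 57 members at least 2-fold higher at maturity, 16 (28.1%) had an adjacent locus that was also at least 2-fold higher, against 21.2% of the higher loci with 1 identifier. Of the 33 lower members, 9 (27.3%) had a lower adjacent locus, against 23.0% of the lower loci with 1 identifier. A locus at least 10 times as abundant stood next to 22 members (8.30%), against 4.95% of the loci with 1 identifier. None of these comparisons was matched on level, and the members had the lower median level (16.0 FPKM, against 25.4 FPKM).

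**Figure D5:**
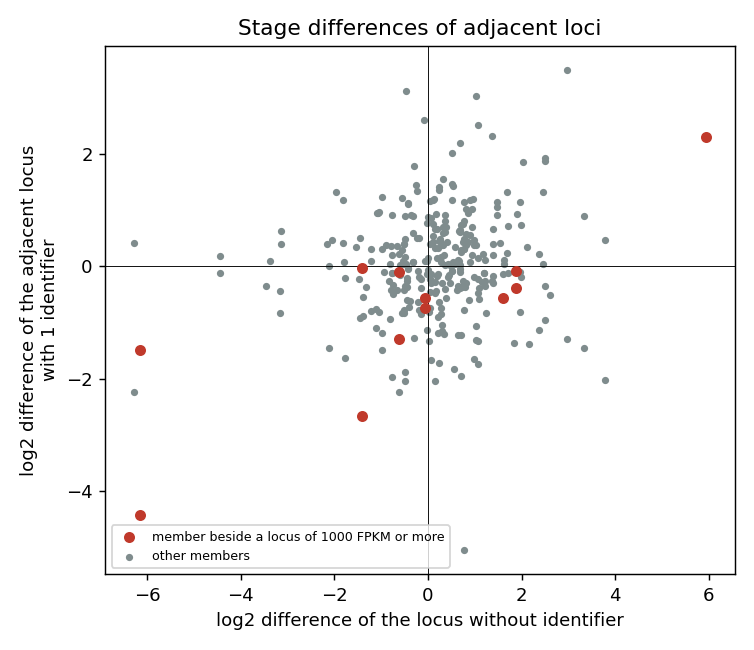
Log2 stage difference of a locus without an identifier (x axis) against that of an adjacent locus with 1 identifier at 1 FPKM or more (y axis), in 315 pairs, with members beside a locus of 1000 FPKM or more in red. The red points at the far left (MSTRG.107, -6.16) and far right (MSTRG.21196, 5.94) lie on the same side of 0 as their abundant neighbours.

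Members numbered next to each other formed 9 pairs, none of them longer than 2 loci. In 4 pairs both loci differed in the same direction and in 5 they did not. MSTRG.18950 (13.8 FPKM at maturity and 5.63 FPKM at the milk stage) and MSTRG.18951 (22.6 FPKM at maturity and 4.76 FPKM at the milk stage) were both more than 2-fold higher at maturity. MSTRG.19002 (12.8 FPKM at maturity and 35.6 FPKM at the milk stage) was lower at maturity, while MSTRG.19003 (13.0 FPKM at maturity and 12.5 FPKM at the milk stage) was near level.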

How the data were processed

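Total RNA (Trizol) went into stranded libraries, per the labels' protocols. Tools named in the submitters' processing notes, without their roles, are HISAT2 2.0.5, Bowtie2 2.2.9, Cuffdiff and cutadapt 1.8.1. For the assembler, the genome build, the strand setting and the scaling of libraries, the sources used here give nothing. The authors deposited FPKM values in 1 column per stage, whose headings are the sample titles without the library number. From these headings alone they were read as the authors' combined values of the libraries of a stage, with no SD or n. Genome sequence was not used here, and no sequences or coordinates are given.

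From these values, log2((maturity FPKM + 1)/(milk-stage FPKM + 1)) was computed, which understates differences of low loci. Matched loci were the 20 nearest in log2 mean FPKM and could be used for several members (3813 distinct loci). The worst match lay 1.73 away on that scale (MSTRG.19811), and the next worst 0.06. Named members were the 5 highest at each stage, the 5 largest and 5 smallest differences, those listed at 0 at 1 stage, the 5 nearest to 0 at a mean of 50 FPKM or more, and those at the limit; members beside very abundant loci and adjacent members were named after their values were seen. The members and lists were chosen with earlier results of these data known. No test was possible. The calculation was tested on simulated data. Software was matplotlib 3.10.9, scipy 1.17.1, pandas 2.3.3, numpy 2.4.6 and Python 3.11.15.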

Additional observations from a re-analysis of the deposited data

How the results depend on the processing

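The members' lean towards higher values at maturity kept its direction under every alternative run that could change it, except 1. At the 4-fold limit 13 were higher and 14 lower. Runs that changed only the matched loci left the members at 57 higher and 33 lower, so they could not move the direction. The distance of their median from that of matched loci was smallest with no limit, at 0.024 against 0.012. With equal sums 40.8% of members were at least 2-fold apart, against 29.0% of matched loci. The median was then 0.58 for members, and 0.29 for the median of the members' matched medians (0.04 as deposited). At a limit of 5 FPKM, 87 members were higher (19.3%, matched 14.9%) and 59 lower (13.1%, matched 11.2%), with a median of 0.22. At 20 FPKM, 32 were higher (22.9%, matched 13.9%) and 20 lower (14.3%, matched 14.2%). With no limit, 159 were higher (8.97%, matched 6.87%) and 134 lower (7.56%, matched 5.59%). Both shares thus stood above the matched ones by about as much. The median was then 0.024, with 16.5% apart (matched 12.5%). With 10 FPKM at both stages, 19 were higher (11.7%, matched 5.09%) and 9 lower (5.52%, matched 6.69%). The median was 0.21, with 17.2% apart (matched 11.8%). With 10 FPKM as the mean, 29.2% of members and 20.8% of matched loci were apart. At the 4-fold limit 10.2% of members and 8.09% of matched loci were apart. Matched loci without the limit gave 21.1%, and matched loci with several identifiers a median of matched medians of 0.22. Without the most abundant member, chosen after seeing the data, the share of the FPKM sum was 1.30% at maturity and 0.975% at the milk stage. No paired analysis was possible because each stage has a single column, and for that reason fits without each library were not run. With no depth given, values near 0 cannot be read closely.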

Other observations

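The 1508 rows without an identifier under 10 FPKM at both stages are not part of the counts above. Of these, 183 were listed at 0 at both stages and 740 reached 1 FPKM at either stage. Among those 740 the median log2 difference was 0.13, and 13.8% lay past the 2-fold limit upwards at maturity and 13.6% downwards. Over the 6809 loci with 1 identifier in the same range, the median was 0.12, and 11.6% lay past it upwards and 8.65% downwards. The larger share of higher than of lower loci seen from 10 FPKM upwards was thus not seen in this lower range, where the share of lower loci stood above that of named genes. These values were not matched on level and carry no test.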
